A study of Mus musculus with 12 samples.

Results

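The interferon response genes described here are Irf1, Irf7, Isg15, Ifit1, Ifit3, Gbp2, Cxcl9 and Cxcl10, 8 of the 8251 mouse genes that could be named on the arrays. Every probe set whose only gene symbol in the platform annotation was one of these was taken, which gave 9 probe sets, since Irf7 has 2. The 4 groups of 3 arrays each were adipocytes of subcutaneous fat (SC adipocytes), adipocytes of intraabdominal fat (IA adipocytes), stromo-vascular cells of subcutaneous fat (SC SVF) and stromo-vascular cells of intraabdominal fat (IA SVF). The subcutaneous depot was flank fat and the intraabdominal depot epididymal fat. All came from untreated C57BL/6 males aged 42 to 49 days, and the fat of 10 mice was combined within each depot before a digestion of 45 min in 1 mg/ml collagenase. The adipocytes are the cells that floated after digestion. The stromo-vascular fraction (SVF) is the pellet, which was freed of red cells, plated at 60000 cells per cm2 and kept 16 h in culture until RNA extraction, so cell fraction and culture cannot be told apart. The labels do not say whether the 3 replicates of a group were separate pools. In such bulk samples fewer cells of a type and less RNA per cell cannot be told apart.

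Interferons are cytokines that cells release on sensing infection or inflammation. Type I interferons and interferon gamma bind separate receptors, activate JAK kinases and STAT factors, and switch on genes through the interferon-stimulated response element (ISRE) and the gamma-activated site (GAS). Irf1 and Irf7 are transcription factors that carry the response further. Isg15, a ubiquitin-like modifier, and Ifit1 and Ifit3, which act on viral RNA, are classical type I targets. Gbp2 is an interferon-inducible GTPase of cell-autonomous defence, and Cxcl9 and Cxcl10 are chemokines that attract CXCR3-bearing T cells and are strongly induced by interferon gamma.

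The promoters of 5 of the 8 genes held the ISRE core and that of 1, Irf1, the GAS core. These stretches are shown because the genes that share an element can then be set beside their values. Windows from 250 bases before to 50 bases after each start site, from RefSeq on GRCm38.p6, were searched on both strands for the ISRE core, the 10-base direct repeat with 2 free bases between its copies whose instances are in capitals below, and for the GAS core, the 9-base palindrome with 3 free bases at its centre shown for Irf1. Neither motif contains the other. Each sequence runs 5′ to 3′ on the strand of the gene, with 10 bases on either side and the match in capitals. Positions are chr4:156200865-156200906 (minus strand) for Isg15, chr19:34640775-34640823 (plus) for Ifit1, chr19:34583363-34583426 (plus) for Ifit3, chr3:142620594-142620623 (plus) for Gbp2, chr5:92349083-92349112 (minus) for Cxcl10 and chr11:53769914-53769942 (plus) for Irf1.
Isg15: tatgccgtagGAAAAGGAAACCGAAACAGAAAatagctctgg
Ifit1: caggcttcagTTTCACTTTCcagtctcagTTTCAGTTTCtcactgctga
Ifit3: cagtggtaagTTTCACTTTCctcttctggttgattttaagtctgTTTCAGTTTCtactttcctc
Gbp2: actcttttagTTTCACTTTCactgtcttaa
Cxcl10: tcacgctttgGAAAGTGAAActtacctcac
Irf1: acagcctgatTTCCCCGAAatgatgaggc

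Isg15 held 3 overlapping ISRE cores between positions -78 and -57 from the start site. Ifit1 and Ifit3 each held 2 cores, and the same pair of 10-base words, TTTCACTTTC then TTTCAGTTTC, occurred in both. Gbp2 carried the word TTTCACTTTC once, at -59 to -50, and the core of Cxcl10 lay farthest from the start site, at -213 to -204. The match of Irf1 was to the GAS core, at -90 to -82, in 1 of its 2 annotated windows. No match to either core lay in the windows of Irf7 and Cxcl9, which says only that these letters are not in these stretches. Of all 32851 windows, 3.44% held the ISRE core and 8.3% the GAS core. Counted by gene, as for the members, the shares were 3.99% and 9.55% of 27025 genes, so 1 of 8 with the GAS core is near the general share. A match describes the sequence and does not show that a factor binds there.

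**Figure D1:**
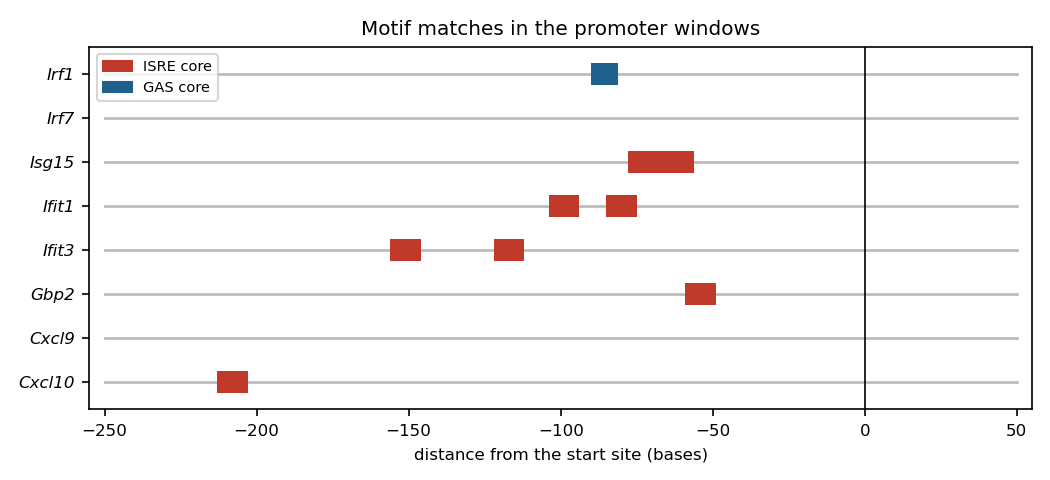
Position of each match to the ISRE core (red) and the GAS core (blue) along the promoter windows of the 8 genes, in bases from the start site at 0. Isg15, Ifit1, Ifit3 and Gbp2 have their ISRE cores between -156 and -50, while that of Cxcl10 lies at -213 to -204.

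The arrays were comparable in overall signal. Their 2% trimmed means lay within a ratio of 1.00017, and the median signal of an array ranged from 422.8 to 558.4. Adipocyte markers summed to 317809 to 348972 signal units in SC adipocytes and 372068 to 452110 in IA adipocytes, against 3178 to 5122 in SC SVF and 3574 to 4077 in IA SVF, so every adipocyte array was far above every SVF array. RNA quality moved with the groups: the actin 3′ to 5′ signal ratio, which rises as RNA is degraded, was 2.35 to 3.10 in SC adipocytes, 1.71 to 2.24 in IA adipocytes, 1.20 to 1.24 in SC SVF and 1.11 to 1.21 in IA SVF. Its part in the results was not tested beyond the fits with this ratio as a covariate given below.

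The 8 genes fell into 2 sets of patterns over the 4 groups. Irf1, Gbp2, Cxcl9 and Cxcl10 were high in adipocytes of both depots and low in SVF. Irf7, Isg15, Ifit1 and Ifit3 differed far less between fractions, and their lowest mean lay in IA adipocytes. The values below are MAS5 signals, a linear intensity with no fixed unit that is comparable between arrays for 1 probe set but not between probe sets.

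**Figure D2:**
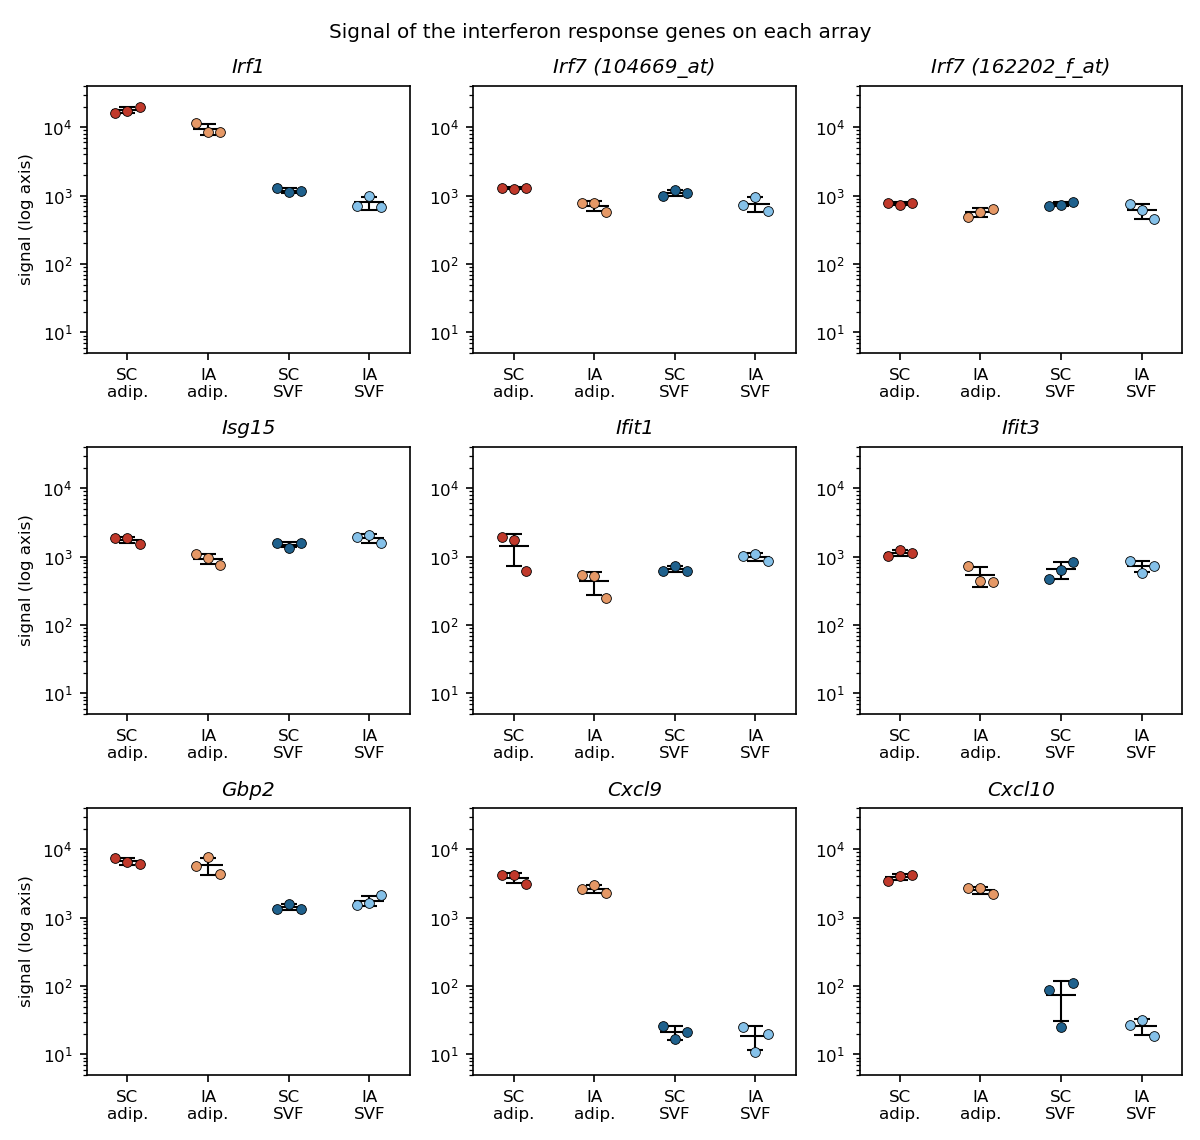
MAS5 signal (log axis, arbitrary units) of the 9 probe sets on each of the 12 arrays, with the mean and SD of the 3 arrays of a group as bars. Irf1, Gbp2, Cxcl9 and Cxcl10 separate adipocytes from SVF, while for Irf7, Isg15, Ifit1 and Ifit3 the IA adipocytes lie at or near the bottom.

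Among the transcription factors, Irf1 (probe set 102401_at) gave signals of 16117, 17390 and 19902 in SC adipocytes, against 11580, 8521 and 8472 in IA adipocytes. In SVF it gave 1286, 1110 and 1164 in SC fat, against 716, 987 and 676 in IA fat. All 4 groups were separate, in the order SC adipocytes, IA adipocytes, SC SVF and IA SVF. The main Irf7 probe set (104669_at) gave 1290, 1239 and 1309 in SC adipocytes, against 781, 784 and 572 in IA adipocytes. It gave 997, 1192 and 1094 in SC SVF, against 726, 968 and 591 in IA SVF. Both SC groups of Irf7 lay above both IA groups, and the IA groups overlapped each other. The second Irf7 probe set (162202_f_at), whose suffix marks probes that may be shared within a sequence family, averaged 763 ± 31.2 in SC adipocytes, 570 ± 79.4 in IA adipocytes, 747 ± 46.9 in SC SVF and 606 ± 149 in IA SVF (SD, n = 3 each).

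Among the antiviral effectors, Isg15 (98822_at) gave 1882, 1849 and 1527 in SC adipocytes, against 1080, 953 and 764 in IA adipocytes. Its SVF signals were 1570, 1357 and 1574 in SC fat, against 1956, 2036 and 1561 in IA fat. IA adipocytes stood below the other 3 groups, whose ranges overlapped from neighbour to neighbour. Ifit1 (100981_at) gave 1944, 1749 and 623 in SC adipocytes, against 531, 524 and 247 in IA adipocytes. The third SC array was far below the other two, yet above every IA adipocyte array. In SVF the order of the depots was turned round, with 619, 734 and 612 in SC SVF, against 1035, 1101 and 857 in IA SVF. Ifit3 (93956_at) gave 1008, 1235 and 1133 in SC adipocytes, against 735, 445 and 431 in IA adipocytes. SC adipocytes stood above all other groups for Ifit3. The remaining 3 groups of Ifit3 overlapped, with 477, 628 and 845 in SC SVF and 854, 580 and 739 in IA SVF.

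The GTPase Gbp2 (104597_at) gave 7482, 6464 and 6023 in SC adipocytes, against 5584, 7560 and 4294 in IA adipocytes, and these groups overlapped. Its SVF signals were 1341, 1584 and 1353 in SC fat, against 1546, 1648 and 2109 in IA fat, again with overlap. The chemokine Cxcl9 (101436_at) gave 4215, 4257 and 3059 in SC adipocytes, against 2605, 3014 and 2313 in IA adipocytes. In SVF it was near the bottom of the scale, at 26.3, 16.5 and 21.3 in SC fat and 24.8, 10.9 and 20.0 in IA fat. Cxcl10 (93858_at) gave 3449, 4038 and 4230 in SC adipocytes, against 2743, 2684 and 2194 in IA adipocytes. In SVF it gave 87.5, 25.6 and 110 in SC fat, against 27.3, 32.3 and 18.6 in IA fat. Both chemokines thus separated the adipocytes of the depots, with SC above IA, and overlapped between the SVF of the depots.

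To compare groups, limma was run on log2(signal + 40.2), with Benjamini-Hochberg adjustment over the 8695 probe sets that passed a filter on low values, and an adjusted p under 0.05 was counted as called. A fold change on this scale understates the change of dim probe sets. All 9 probe sets passed the filter, Cxcl9 and Cxcl10 only through adipocytes, since their SVF signals were under the level of 172.7 at which probe sets were left out. The 4 comparisons share groups, so their results are not independent of each other.

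In adipocytes, 5 of the 9 probe sets were higher in SC than in IA fat and none was lower, where 3.97% of all probe sets tested were called higher and 4.16% lower. Ifit1 differed most, by 1.56 ± 0.37 on the log2 scale (SE), a 2.94-fold difference with an adjusted p of 0.0188. Ifit3 was 2.07-fold higher (log2 1.05 ± 0.26, adjusted p = 0.0236) and Irf1 1.88-fold higher (0.91 ± 0.17, adjusted p = 0.0039). Isg15 was 1.85-fold higher (0.89 ± 0.18, adjusted p = 0.0061), and Irf7 by its main probe set 1.77-fold higher (0.82 ± 0.21, adjusted p = 0.0244).

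The other 4 probe sets did not pass. The log2 difference was 0.53 for Cxcl9 (95% interval -0.01 to 1.06) and 0.61 for Cxcl10 (-0.02 to 1.24), each with an adjusted p of 0.212. For Gbp2 it was 0.23 (-0.18 to 0.63, adjusted p = 0.488), and for the second Irf7 probe set 0.40 (-0.06 to 0.87, adjusted p = 0.267). In 8 of the 9 probe sets, Gbp2 being the exception, every SC array was above every IA array, as in 13.6% of all probe sets. Over all tested probe sets the median was 0.07, and -0.06 after each array was centred on its median, where 4 of the 9 were called and Irf7 had an adjusted p of 0.0597. With the actin ratio as a covariate only Irf1 remained called (log2 1.40, adjusted p = 0.00733), while the differences of Isg15, Ifit1, Ifit3 and Irf7 were 0.92, 0.91, 1.35 and 1.05 with adjusted p from 0.159 to 0.575. Ifit1 rested on individual arrays: its adjusted p was 0.0699 without SC adipocyte replicate 1 and 0.0668 without replicate 2, and 0.00136 with a log2 difference of 2.06 without replicate 3.

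In SVF, only Irf1 was called between depots, 1.49-fold higher in SC than in IA cells (log2 0.57 ± 0.17, adjusted p = 0.0339), where 6.49% of all probe sets were called higher and 6.45% lower. The log2 difference of Irf7 was 0.52 by its main probe set (95% interval 0.08 to 0.96, adjusted p = 0.121) and that of Cxcl10 was 0.71 (0.08 to 1.34, adjusted p = 0.144). Isg15, Ifit1, Ifit3 and Gbp2 had negative differences of -0.29, -0.58, -0.17 and -0.29, none of which passed (adjusted p from 0.344 to 0.768). Irf1 and the main Irf7 probe set had every SC array above every IA array and Ifit1 every SC array below, where 20.5% and 16.8% of all probe sets had this. Cxcl9 differed by 0.07 (adjusted p = 0.911). The call on Irf1 was lost when arrays were centred on their medians (adjusted p = 0.0877), under quantile normalization (0.0517), without the trend (0.0762), with only those groups in the fit (0.0551) and with the replicate number as a block (0.057). It was also lost without SC SVF replicate 1, 2 or 3 (0.12, 0.0649 and 0.0867) and without IA SVF replicate 1 or 3 (0.106 and 0.139). With only those groups in the fit Ifit1 was called instead, lower in SC SVF (log2 -0.58, adjusted p = 0.0472). Without SC SVF replicate 2 the difference of Cxcl10 was called (1.07, adjusted p = 0.0149).

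The depot difference itself differed between fractions for Isg15 and Ifit1. The difference between SC and IA fat was larger in adipocytes than in SVF by 1.18 ± 0.25 log2 units for Isg15 (SE, adjusted p of the interaction = 0.00742) and by 2.13 ± 0.52 for Ifit1 (adjusted p = 0.0189). For Ifit3 it was larger by 1.22 ± 0.37, which did not pass (adjusted p = 0.057), although it passed without IA adipocyte replicate 1 (1.45, adjusted p = 0.027) and without SC SVF replicate 3 (1.41, adjusted p = 0.0411). For Irf1, Irf7, Gbp2, Cxcl9 and Cxcl10 the interaction lay between -0.10 and 0.52 with adjusted p from 0.296 to 0.926. So 2 of the 9 probe sets were called, both positive, where 3.9% of all probe sets were called positive and 4.53% negative. With the actin ratio as a covariate neither remained called, at 1.20 (adjusted p = 0.0536) for Isg15 and 1.56 (adjusted p = 0.232) for Ifit1.

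**Figure D3:**
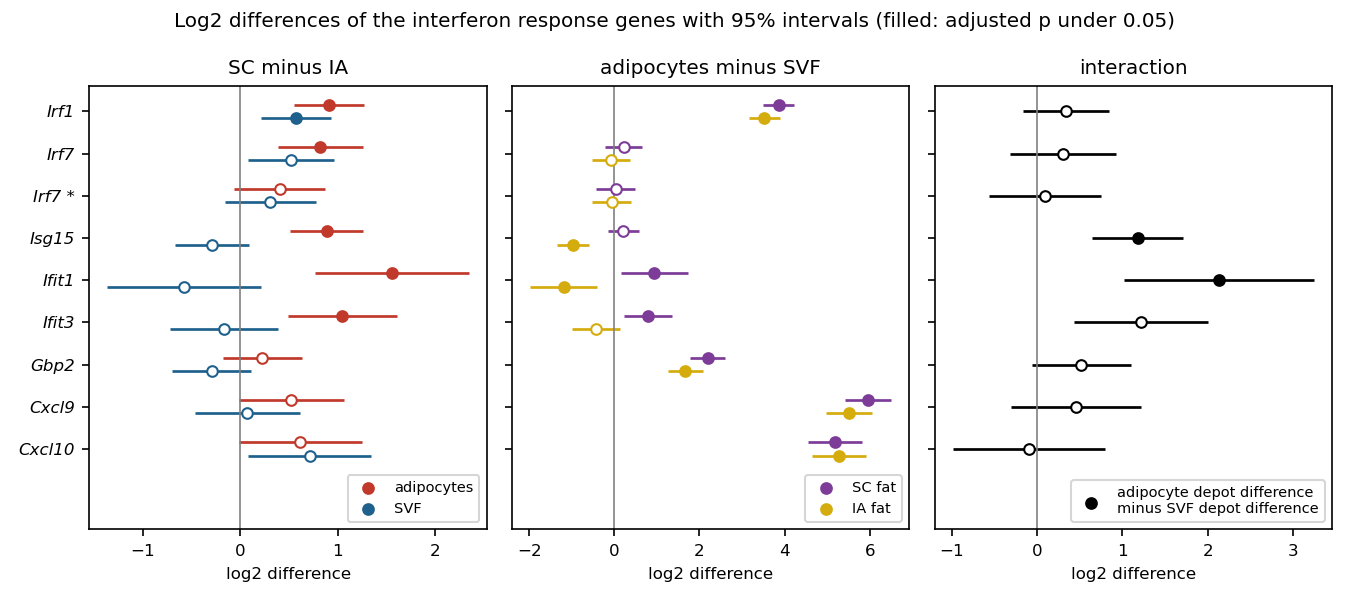
Log2 differences with 95% intervals for the 9 probe sets (Irf7 * is 162202_f_at): SC minus IA in adipocytes (red) and SVF (blue), adipocytes minus SVF in SC fat (purple) and IA fat (yellow), and the interaction, with filled points for an adjusted p under 0.05. Isg15 and Ifit1 lie right of 0 in adipocytes and left of it in SVF, and their interactions are 1.18 and 2.13.

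Between cell fractions, Cxcl9, Cxcl10, Irf1 and Gbp2 were higher in adipocytes than in SVF in both depots, as were 17.2% of all probe sets. Cxcl9 and Cxcl10 had passed the filter only through adipocytes, which favoured this direction for them. Cxcl9 averaged 3844 ± 680 in SC adipocytes and 21.4 ± 4.87 in SC SVF (SD, n = 3 each), a difference of 5.97 log2 units (62.5-fold, adjusted p = 8.91e-11), and the difference in IA fat was 5.51 (45.7-fold, adjusted p = 1.74e-10). Cxcl10 averaged 3906 ± 407 in SC adipocytes and 74.4 ± 43.8 in SC SVF, and was 36.4-fold higher there and 38.9-fold higher in IA fat (adjusted p = 2.06e-09 and 1.54e-09). No detection calls were used, so the SVF signals of both chemokines may be background, and these folds depend on the constant added before taking logs.

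Irf1 averaged 17803 ± 1926 in SC adipocytes and 1187 ± 90.2 in SC SVF, and was 14.5-fold higher there (adjusted p = 1.16e-10) and 11.5-fold higher in IA adipocytes (adjusted p = 2.56e-10). Gbp2 was 4.56-fold higher in SC fat (adjusted p = 1.91e-07) and 3.18-fold higher in IA fat (adjusted p = 3.23e-06). The calls on Irf1, Cxcl9 and Cxcl10 held under every alternative run in which they were tested, while that on Gbp2 in SC fat had an adjusted p of 0.122 with the actin ratio as a covariate.

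Isg15, Ifit1 and Ifit3 had positive differences between fractions in SC fat and negative ones in IA fat. In SC fat, Ifit3 was 1.72-fold higher in adipocytes than in SVF (log2 0.79 ± 0.26, adjusted p = 0.0198) and Ifit1 1.92-fold higher (0.94 ± 0.37, adjusted p = 0.0435), although the ranges of Ifit1 overlapped, and Isg15 differed by 0.22 (adjusted p = 0.324). In IA fat Isg15 was lower in adipocytes than in SVF, 933 ± 159 against 1851 ± 254 (SD, n = 3 each), a log2 difference of -0.96 ± 0.18 (SE, adjusted p = 0.000301). Ifit1 was likewise lower in IA adipocytes, 434 ± 162 against 998 ± 126, by -1.19 ± 0.37 (adjusted p = 0.0138), and Ifit3 differed by -0.43 (adjusted p = 0.188). Both Irf7 probe sets differed by between -0.08 and 0.22 in the 2 depots (adjusted p from 0.39 to 0.921).

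In all, 6 of 9 probe sets were called higher in adipocytes of SC fat, where 23.5% of all probe sets were, and 4 were called higher and 2 lower in IA fat, where 22.4% and 29% of all probe sets were. Cxcl9 and Cxcl10 are among those called higher in both depots. They passed the filter only through adipocytes, which favoured calls in this direction, so the counts overstate the members against that share. The call on Ifit1 in SC fat was lost in 8 of the 12 fits that left out 1 array, with a log2 difference of 0.65 and an adjusted p of 0.18 without SC adipocyte replicate 1, and the difference was -0.69 with the actin ratio as a covariate (adjusted p = 0.778). The call on Ifit3 in SC fat was lost without SC adipocyte replicate 2 (log2 0.72, adjusted p = 0.0597), SC SVF replicate 1 (0.60, adjusted p = 0.0998) or SC SVF replicate 2 (0.78, adjusted p = 0.0505), and with the actin ratio as a covariate (1.55, adjusted p = 0.293). In IA fat the call on Ifit1 was lost without IA adipocyte replicate 3 (log2 -0.86, adjusted p = 0.0691) and with the actin ratio (-2.25, adjusted p = 0.067). That on Isg15 in IA fat was lost with the actin ratio too (-0.92, adjusted p = 0.13).

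Markers of other cells in the fractions were read beside these results. Of all probe sets tested, 3.97% were called higher and 4.16% lower in SC than in IA adipocytes. In SVF the shares were 6.49% and 6.45%. For the interaction 3.9% were called positive and 4.53% negative. Of 13 macrophage and dendritic cell markers tested, 0 were called between SC and IA adipocytes by limma (0 also at an unadjusted p under 0.05), and the signals of 15 on the array summed to 17008 to 27638 in SC adipocytes and 16962 to 34231 in IA adipocytes. In SVF the sum was 23575 to 25585 in SC cells and 42253 to 47414 in IA cells, with 1 marker called higher and 8 lower in SC cells. The interaction was called positive for 6 of these 13 markers and negative for 1. Markers of pericytes and smooth muscle were dimmer in SC SVF than in IA SVF, with 6 of 7 called lower and 0 higher and sums of 32236 to 34411 in SC SVF and 124630 to 150093 in IA SVF, and 5 interactions were called, all positive. All 5 tested mesothelial markers were lower in SC SVF, with sums over 7 on the array of 1087 to 1413 in SC SVF and 6878 to 7064 in IA SVF, and 4 interactions were positive. Markers of T and NK cells, the producers of interferon gamma and the cells that Cxcl9 and Cxcl10 attract, were dim: 9 to 12 of 15 had group means under 172.7, Cd3d, Cd3e and Cd3g in all 4 groups. Their summed signal was 1984 to 4736 in SC adipocytes, 1793 to 2091 in IA adipocytes, 2042 to 2420 in SC SVF and 1484 to 2037 in IA SVF. B cell markers summed to 2585 to 4486 in SC adipocytes and 1538 to 2481 in IA adipocytes, ranges that did not overlap, with 0 of 5 called by limma and 1 at an unadjusted p under 0.05. Of 11 endothelial markers, 10 were higher in adipocytes than in SVF in both depots, beside 23.5% of all probe sets in SC fat and 22.4% in IA fat. With the actin ratio as a covariate 1 of the 11 was called higher in SC fat and 5 in IA fat. In the other alternatives the lowest count was 6 in each depot. The endothelial sum was 24443 to 43003 in SC adipocytes, 28890 to 33547 in IA adipocytes, 10705 to 12415 in SC SVF and 10433 to 17729 in IA SVF. Between depots 6 of these 11 were higher in SC SVF and 0 lower, and 3 interactions were called, all negative. SC adipocytes exceeded IA adipocytes in 3 of 10 markers of fibroblasts and preadipocytes, and the reverse held for 0, with sums of 56066 to 81173 in SC adipocytes and 46840 to 53541 in IA adipocytes, which did not overlap. In SVF 4 of the 10 were higher in SC cells and 1 lower, with sums of 337327 to 368313 in SC SVF and 231594 to 258165 in IA SVF. So the markers of several cell types moved with depot in SVF, and some with the interaction, beside the results above. Between SC and IA adipocytes the sums of adipocyte, of fibroblast and preadipocyte and of B cell markers did not overlap. Adipocyte markers summed to 317809 to 348972 in SC adipocytes and 372068 to 452110 in IA adipocytes, with 1 of 8 called lower in SC and 0 higher. The part of these cells in the results was not tested.

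The rest of the pathway was described by gene lists grouped by role. Upstream, 0 of 10 tested genes for interferon ligands and receptors and 0 of 5 for the JAK-STAT relay were called between SC and IA adipocytes by limma, with median log2 differences of 0.07 and -0.002 beside 0.07 for all probe sets tested. At an unadjusted p under 0.05 there were 0 and 2. Of 5 pattern sensors 2 were higher in SC adipocytes, the RNA sensor Ifih1 (1.83-fold) and the lipopolysaccharide co-receptor Cd14 (1.55-fold). Ifng, which encodes interferon gamma, was under the filter, with group means of 51.8, 25.6, 15.0 and 12.1 in SC adipocytes, IA adipocytes, SC SVF and IA SVF. Ifnb1, which encodes interferon beta, averaged 569.6 ± 239.6 in SC adipocytes and 108.3 ± 109.1 in SC SVF and was called higher in those adipocytes (log2 2.20, adjusted p = 0.00152), although its SC SVF mean was under the level of 172.7 and may be background. In IA fat it averaged 323.7 ± 118 in adipocytes and 155.6 ± 57.4 in SVF and was not called (0.89, adjusted p = 0.143). The receptor chain Ifnar2 was 6.17-fold lower in SC adipocytes than in SC SVF (1082 ± 382 against 6678 ± 1116) and Ifngr2 3.86-fold lower. Ifngr1, the other chain of the interferon gamma receptor, was 2.09-fold higher in IA adipocytes than in IA SVF (2019 ± 239 against 986 ± 398, adjusted p = 0.00225). These 4 calls, on Ifnb1, Ifnar2 and Ifngr2 in SC fat and on Ifngr1 in IA fat, were lost with the actin ratio as a covariate (adjusted p from 0.103 to 0.383). In IA fat Ifnar2 and Ifngr2 were also lower in adipocytes than in SVF, 4.59-fold and 3.43-fold. Both of those calls held with the actin ratio (adjusted p = 0.0302 and 0.0222). Among the other IRF factors, Irf4 and Irf8 were higher in adipocytes in both depots. Irf4, a regulator of lipid handling in mouse fat as well as of lymphocytes, averaged 1613 ± 311 in SC adipocytes and 33.7 ± 3.39 in SC SVF, and gave 558, 713 and 2900 in IA adipocytes, against 14.8 to 29.2 in IA SVF. It passed the filter only through adipocytes, and its SVF signals, under the constant of 40.2, may be background. Irf4 and Irf8 kept their calls with the actin ratio in IA fat and lost them in SC fat.

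Among genes downstream of interferon, calls between SC and IA adipocytes were mostly towards SC fat, where 3.97% of all probe sets were called higher and 4.16% lower. Of 7 tested interferon-inducible GTPases 4 were higher and 0 lower, with a median of 0.99, and Ifi47 led with 530.8 ± 105.8 in SC adipocytes and 134.1 ± 76.1 in IA adipocytes (3.47-fold, adjusted p = 0.00249). The IA adipocyte mean of Ifi47 was under the level of 172.7 and may be background, so its fold depends on the added constant. Of 12 genes of class I antigen processing 6 were higher and 0 lower, with a median of 0.56. The smallest p among them was that of H2-Q10, at 14560 ± 2299 in SC adipocytes and 3484 ± 125.5 in IA adipocytes (4.11-fold, adjusted p = 8.52e-07). Its call held with the actin ratio as a covariate (adjusted p = 0.00126). The genes called higher also included the immunoproteasome subunit Psmb8, at 4115 ± 593 in SC adipocytes and 1464 ± 198 in IA adipocytes (2.76-fold, adjusted p = 2.55e-05), and the peptide transporter Tap1, at 1.96-fold. Of 28 type I antiviral genes 4 were higher and 0 lower, with a median of 0.52, led by the entry inhibitor Ifitm3 (1.99-fold, adjusted p = 0.000541) and the nucleotide hydrolase Samhd1 (1.84-fold, adjusted p = 0.00351). Of 14 other interferon gamma targets 2 were higher and 1, the adhesion molecule Icam1, was lower. Of 4 related chemokines 1, Ccl8, was higher. In SVF 7 of the 12 class I genes were higher in SC than in IA cells and 0 lower, beside 6.49% and 6.45% of all probe sets.

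The feedback brakes of the pathway were among the genes with large differences: 4 of 8 were higher in SC than in IA adipocytes and 0 lower. Socs3, an inhibitor of JAK kinases that also answers to interleukin-6 and leptin, gave 15710, 18160 and 18660 in SC adipocytes, against 4341, 3493 and 2982 in IA adipocytes (4.86-fold, adjusted p = 4.56e-07). Usp18, which removes Isg15 from proteins and blocks the type I receptor, gave 504.7, 492.0 and 447.2 in SC adipocytes, against 162.2, 112.9 and 112.2 in IA adipocytes (3.11-fold, adjusted p = 0.000876). Every SC array exceeded every IA array in both genes. The IA adipocyte mean of Usp18, 129.1, was under the level of 172.7 and may be background, so its fold depends on the added constant. In SVF 2 of the 8 brakes were also higher in SC cells, Socs3 (log2 1.21, adjusted p = 7.44e-05) and Socs1 (1.29, adjusted p = 0.00769). Another, Socs2, was lower there (-0.56, adjusted p = 0.0499), where 6.49% of all probe sets were called higher and 6.45% lower. The call on Socs2 was lost with the actin ratio as a covariate (adjusted p = 0.0625). It was also lost in 12 other alternatives, 7 of them fits that left out 1 array. The IA SVF mean of Socs1, 111.9, was under the level of 172.7 and may be background. Uba7, the enzyme that activates Isg15 for conjugation, was 1.96-fold higher in SC adipocytes (1294 ± 198 against 644 ± 112, adjusted p = 0.00517).

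Many of these calls between SC and IA adipocytes were lost with the actin ratio as a covariate. The brakes then had 2 of 8 called higher, Socs3 (log2 2.65, adjusted p = 6.5e-05) and Usp18 (1.88, adjusted p = 0.0361). The GTPases had 0 of 7, with Ifi47 at 1.62 (adjusted p = 0.161), the class I genes 2 of 12, the antiviral genes 1 of 28 and the sensors 0 of 5. The calls on Ifih1 and Cd14 were also lost in 13 and 15 of the 22 other alternatives. Psmb8 was among the class I genes still called (1.74, adjusted p = 0.00126), while Tap1 (1.16, adjusted p = 0.0693), Ifitm3 (0.99, adjusted p = 0.0567), Samhd1 (0.64, adjusted p = 0.277), Uba7 (0.70, adjusted p = 0.323) and Icam1 (-1.68, adjusted p = 0.0719) were not. Without the covariate Tap1 and Icam1 had smaller differences (0.97 and -1.06), and Samhd1 and Uba7 larger ones (0.88 and 0.97). The ratio did not overlap between SC adipocytes (2.35 to 3.10) and IA adipocytes (1.71 to 2.24). This fit therefore cannot separate it well from depot, and a lost call does not show that RNA quality made the difference.

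**Figure D4:**
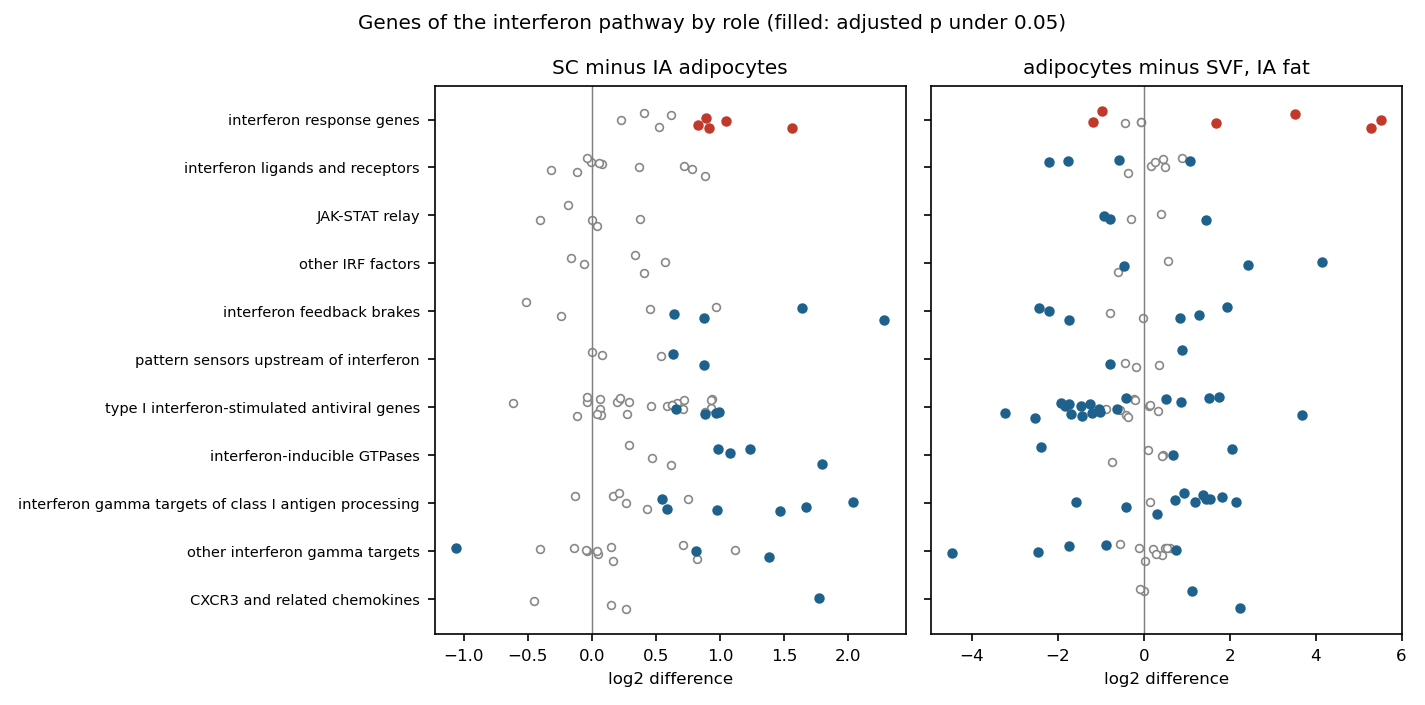
Log2 differences of the tested genes of each list, SC minus IA adipocytes on the left and adipocytes minus SVF in IA fat on the right, with filled points for an adjusted p under 0.05 and the interferon response genes in red. The feedback brakes, GTPases and class I genes called on the left are all above 0, and most called antiviral genes on the right are below 0.

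The depot difference was larger in adipocytes than in SVF for Usp18 (by 1.23 ± 0.34 log2 units, SE, adjusted p = 0.0375), Ifi47 (2.06 ± 0.43, adjusted p = 0.0076), Gbp3 (1.49 ± 0.34, adjusted p = 0.0126) and Ifitm3 (1.15 ± 0.19, adjusted p = 0.00153). For Usp18 and Ifi47 the IA adipocyte means were under the level of 172.7 and may be background. The other brakes called were Socs3 (1.07 ± 0.22, adjusted p = 0.0058) and Socs2 (1.20 ± 0.25, adjusted p = 0.00692). With the actin ratio Socs3 kept its call (adjusted p = 0.00501) and Socs2 did not (0.0535). Counts were 3 of 7 GTPases, 3 of 8 brakes and 2 of 28 antiviral genes, all positive, where 3.9% of all probe sets were called positive and 4.53% negative. Other lists had negative calls. Of 12 class I genes 3 were called, all negative: Tapbp (-1.20, adjusted p = 0.000489), H2-D1 and H2-K1. Of 4 chemokines 3 were called, all negative: Ccl8 (-3.88, adjusted p = 3.95e-05), Ccl2 (-0.88, adjusted p = 0.0289) and Ccl7 (-0.87, adjusted p = 0.04). The 14 other interferon gamma targets held 1 positive call, the antibody receptor Fcgr1 (1.66, adjusted p = 0.0408), and 3 negative ones, among them Icam1 (-1.81, adjusted p = 0.0081) and the inflammatory protease Casp4 (-1.29, adjusted p = 0.00501). In the fit with the actin ratio the GTPases and the brakes had 1 positive call each, the antiviral genes 2, the class I genes 2 negative and the chemokines 1 negative, and Usp18 and Ifi47 were not called (adjusted p = 0.0815 and 0.0828). The call on Usp18 was also lost in 13 other alternatives, 9 of them fits that left out 1 array, and those on Ccl2, Ccl7 and Fcgr1 in 9, 13 and 10. The class I heavy chain genes are near-identical copies whose probe sets can share RNA, as can those of the Gbp family, so single members are uncertain.

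**Figure D5:**
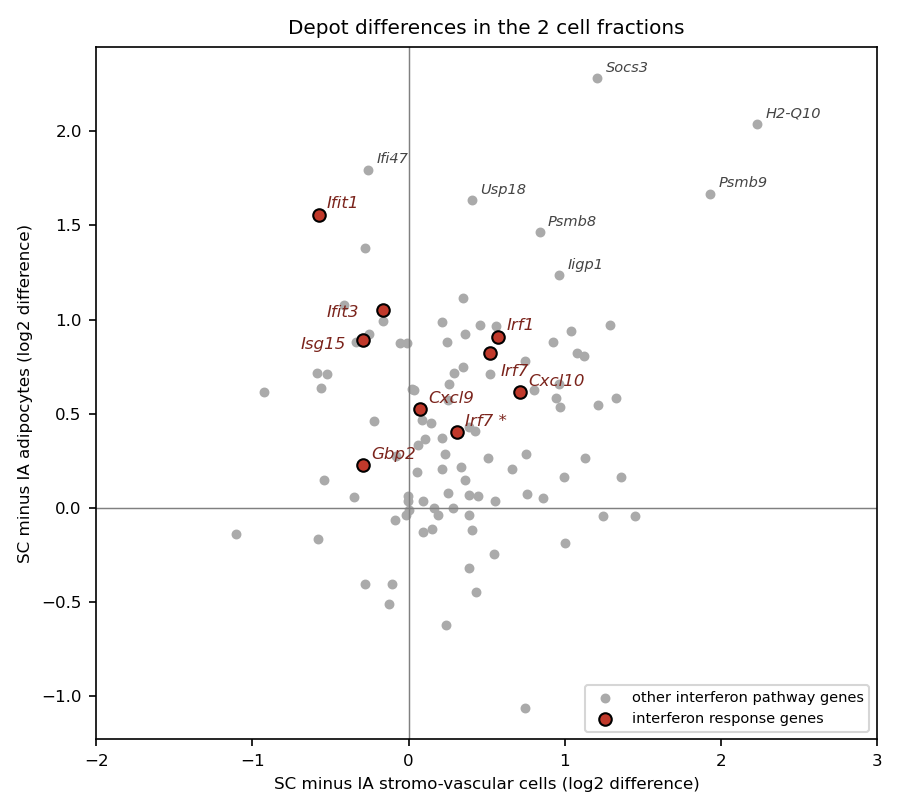
SC minus IA log2 difference in SVF (horizontal) against that in adipocytes (vertical) for the 9 probe sets (red; Irf7 * is 162202_f_at) and for 97 of 98 tested genes of the pathway lists (grey; 1, Ccl8, is outside the axis). Isg15, Ifit1, Ifit3 and Gbp2 lie above 0 on the vertical axis and below 0 on the horizontal axis.

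Between fractions the lists also split. Of all probe sets 22.4% were called higher in adipocytes and 29% lower in IA fat, and 23.5% higher and 29.4% lower in SC fat. In IA fat, 14 of 28 antiviral genes were lower in adipocytes than in SVF and 5 higher, with a median of -0.59 beside -0.11 for all probe sets, while 9 of 12 class I genes were higher and 2 lower, with a median of 1.07. The counts in SC fat were 15 lower and 5 higher for the antiviral genes and 9 higher and 2 lower for class I. With the actin ratio as a covariate the antiviral genes had 9 lower and 2 higher in IA fat and 2 lower and 2 higher in SC fat, and class I 7 higher and 1 lower in IA fat and 1 higher and 1 lower in SC fat. Ifi27l2a and Ifi27 were among the 5 antiviral genes called higher in adipocytes in each depot. Ifi27l2a was 19.0-fold higher in SC adipocytes than in SC SVF (22240 ± 12200 against 1034 ± 146, SD) and 12.9-fold higher in IA adipocytes than in IA SVF. Ifi27 was 3.5-fold higher in SC fat and 3.4-fold higher in IA fat.

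Across the 12 arrays, which share the large difference between fractions, the pairs among Irf1, Gbp2, Cxcl9 and Cxcl10 had correlations of log2 signal from 0.94 to 0.99, as a description. Within groups the same 6 pairs ranged from -0.44 to 0.48. Isg15 and Ifit1 had a correlation of 0.85 over the arrays and 0.73 within groups, and the 10 pairs of probe sets among Irf7, Isg15, Ifit1 and Ifit3 ranged from 0.25 to 0.85, and from -0.15 to 0.73 within groups. The genes most like Cxcl9 were Ces1d, Pnpla2 and Fasn, enzymes of lipid handling, at 0.998, 0.998 and 0.998. Isg15 was most like Cap1, Fen1 and Ube2l6, at 0.93, 0.92 and 0.92, of which Ube2l6 encodes the enzyme that conjugates Isg15. Ube2l6 averaged 641.3 in SC adipocytes, 334.6 in IA adipocytes, 566.6 in SC SVF and 698.4 in IA SVF. The genes most like the mean of the members were Kcnk2, Mup3, Igtp, Mup5 and Socs3, at 0.91 to 0.95.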

How the data were processed

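RNA of 12 samples was hybridised to Affymetrix mouse expression arrays, 15 µg per array per the labels. The authors deposited 1 linear intensity per probe set (12488) and array, made with MAS5 per the submitters' processing notes. Its version is not stated, and detection calls and probe-level files were not used here. The trimmed means show that the arrays had been scaled to a common level, so values were taken as deposited. No 2 arrays were identical (0 pairs).

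After 66 control probe sets were left out, 10833 of 12422 had 1 gene symbol in the platform annotation, which can be old, 396 had several and 1193 had none here. The 10th percentile of all values, 40.2, was added before log2, and the 30% of probe sets with the lowest mean were left out, which left 8695. limma 3.58.1 fitted the 4 group means over all 12 arrays (lmFit and eBayes with an intensity trend, R 4.3.3; 8 residual degrees of freedom), giving the 4 group comparisons and the interaction of depot and fraction. p-values were adjusted by Benjamini-Hochberg over all probe sets tested, with 0.05 as the threshold. They measure only the spread between these arrays, which may be technical, and 3 arrays per group limit the precision.

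The genes and the pathway and marker lists were chosen with earlier results of these data known. From each list the up to 3 called genes with the smallest p per comparison were candidates for naming, and only some of them are named here. The highest-mean probe set stood for a gene. Genes of like pattern were the 3 with the highest correlation to each probe set and the 5 with the highest to the mean of the members. A few list genes, such as Ifng and Ube2l6, are given for their role and were chosen after their values were seen. Same-numbered arrays showed no clear shared deviation: correlations of deviations between them ranged from -0.09 to 0.11 over 18 pairs. Such correlations cannot show whether these arrays came from the same mice or batch. Promoter sequences came from RefSeq on GRCm38.p6 and all 8 genes matched; no protein sequences were used here. Alternatives covered the added constant, the filter, array scaling, array weights, the trend, the groups in the fit, the actin ratio as a covariate, the replicate block and leaving out each array. Refits of the list genes and list counts were added after seeing the data.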

Additional observations from a re-analysis of the deposited data

Results flagged for a closer look

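The depot difference of Isg15 differed between the cell fractions by the interaction test, by 1.18 log2 units (SE 0.25, adjusted p = 0.00742 by limma). The mean signals were 1752 in SC adipocytes and 933 in IA adipocytes, against 1501 in SC SVF and 1851 in IA SVF. The depot difference of Ifit1 differed by 2.13 log2 units (SE 0.52, adjusted p = 0.0189), with mean signals of 1439 in SC adipocytes and 434 in IA adipocytes, against 655 in SC SVF and 998 in IA SVF. In adipocytes all 3 SC arrays were above all 3 IA arrays for both genes, and in SVF the 3 SC arrays were below the 3 IA arrays for Ifit1 only. With the actin ratio as a covariate the adjusted p was 0.0536 for Isg15 and 0.232 for Ifit1. No cause was tested.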

How the results depend on the processing

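The members' differences and all counts of calls were refitted under 23 alternatives for a comparison of 2 groups and 22 for the interaction. Of 20 called differences of the members, 8 kept their call under every alternative in which they were tested: Irf1 between depots in adipocytes, Irf1, Cxcl9 and Cxcl10 between fractions in both depots, and Gbp2 between fractions in IA fat. Cxcl9 and Cxcl10 were not tested with the lowest 50% left out. They had passed the main filter only through adipocytes, which favoured their calls between fractions. With 5 members called between SC and IA adipocytes (707 of all probe sets), the count was 2 (299) with only those groups in the fit, 3 with array weights and 1 (97) with the actin ratio as a covariate. With 1 called between SC and IA SVF (1125), it was 0 after median-centring, quantile normalization, a fit without the trend or the replicate block. It stayed 1 with only those groups in the fit, but the call was then on Ifit1, and without SC SVF replicate 2, but then on Cxcl10. Array weights called 1952 of all probe sets. Between fractions the actin ratio left 3 of 6 in SC fat (1058 of 4595 probe sets) and 4 of 6 in IA fat (2173 of 4462), where Isg15 and Ifit1 were lost, and for the interaction 0 of 2 (403 of 733). This covariate also widened errors between fractions, for Cxcl10 in SC fat to an SE of 1.02 with it, against 0.29 without. Leaving out 1 array gave 3 to 5, 0 to 1, 4 to 6, 5 to 6 and 2 to 3 members for SC against IA adipocytes, SC against IA SVF, adipocytes against SVF in SC fat and in IA fat, and the interaction, and 367 to 958, 766 to 1263, 3969 to 4662, 4021 to 4640 and 536 to 819 of all probe sets. Among the fits that left out 1 array, member calls between SC and IA adipocytes were fewest without SC adipocyte replicate 1 or 2 or IA adipocyte replicate 3 (3 of 5 left each). Same-numbered arrays showed no clear shared deviation, and with the replicate block the counts were 5, 0, 6, 6 and 2 of the members and 595, 1051, 4506, 4405 and 645 of all probe sets.

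All values that changed sign were small or uncalled except 1, Ifit1 between fractions in SC fat (-0.69 with the actin ratio). Between SC and IA SVF these were Ifit3 (leaving out 1 array, -0.363 to 0.024) and Cxcl9 (-0.026 to 0.148). Between fractions in IA fat the main Irf7 probe set was 0.075 median-centred, 0.066 with quantile normalization, 0.292 with the actin ratio and -0.237 to 0.10 leaving out 1 array. The second Irf7 probe set was 0.089 under both scalings and -0.252 to 0.091 leaving out 1 array, and in SC fat -0.242 with the actin ratio and -0.008 to 0.076 leaving out 1 array. Ifit3 in IA fat was 0.069 with the actin ratio. The interaction of the second Irf7 probe set was -0.029 with quantile normalization, -0.001 with the actin ratio and -0.061 to 0.282 leaving out 1 array. The interaction of Cxcl10 was 0.166 with 100 added, 0.035 with array weights, 0.059 with the actin ratio and -0.456 to 0.141 leaving out 1 array. The cause of these changes was not tested. Ifit3 passed for the interaction with the lowest 50% left out (adjusted p = 0.047), without IA adipocyte replicate 1 (0.027) and without SC SVF replicate 3 (0.0411). The same alternatives were run, after seeing the data, on 106 differences of list genes. These were the up to 3 called genes with the smallest p per list and comparison, whether named here or not. Of these differences 0 changed sign, 54 kept their call throughout, 49 lost it with the actin ratio and at most 12 under any other alternative. Signals near background, as for Cxcl9 and Cxcl10 in SVF, limit what can be said of their differences between depots.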

Other observations

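Mup3 and Mup5, genes of the major urinary proteins, which bind pheromones and are best known from liver, were among the genes whose pattern was most like the mean of the members over the 12 arrays (correlations of 0.94 and 0.91). Mup3 averaged 18990 in SC adipocytes, 397.7 in IA adipocytes, 87.6 in SC SVF and 75.3 in IA SVF. The Mup genes are near-identical copies, so their probe sets cannot be told apart by gene. Kcnk2, which encodes a potassium channel, was most like the mean, at 0.95, with 1829 in SC adipocytes, 741.8 in IA adipocytes, 400.9 in SC SVF and 474.8 in IA SVF.

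The promoter windows of 6 of 7 interferon-inducible GTPases, 9 of 26 antiviral genes and 2 of 11 class I genes held the ISRE core, where 3.65% of 5156 tested genes with a window did. The list counts are over genes on the arrays with a window, tested or not, so they differ from the tested genes above. Other lists ranged from 0 of 7 relay genes to 3 of 5 pattern sensors. The GAS core was in 3 of 7 GTPases (42.86%), 8 of 26 antiviral genes (30.77%) and 2 of 11 class I genes (18.18%), beside 8.22% of the tested genes. Among the other lists it ranged from 0 of 7 relay genes to 6 of 12 genes for ligands and receptors.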
